A study of Mus musculus with 14 samples.

Results

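The 6 genes described here are the transcription factor genes at the centre of fat cell formation: Pparg and the C/EBP genes Cebpa, Cebpb, Cebpd, Cebpg and Ddit3. They were chosen by name, with earlier results of these data known, and all 6 were found among the 18193 genes measured. Expression was measured on 14 arrays in 3T3-L1, a line of mouse fibroblasts that stores fat once treated with hormones. Preadipocytes were transduced with lentivirus, carrying either a sequence against TP53INP2 (labelled KD TP53INP2, called knockdown below) or a scrambled sequence (labelled Control). Knockdown and control cells were each taken at day 0 of differentiation, 2 days after confluence, with 3 arrays per group, and at day 7 in differentiation medium, with 4 arrays per group. Both kinds of cells therefore carry a virus, and a lasting difference between the transduced cells and a knockdown effect cannot be told apart. Whether each was a clone or a pool is not given in the sources used here, nor is whether replicates were grown as separate cultures; the p-values thus cover only how far these arrays differ, which may be technical.

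Fat cell formation in 3T3-L1 cells runs as a relay of transcription factors. C/EBPbeta and C/EBPdelta, encoded by Cebpb and Cebpd, are known as the early factors that hormones switch on, and they activate Pparg and Cebpa. PPARgamma, a nuclear receptor that pairs with RXR, and C/EBPalpha then sustain each other and turn on the genes of the mature fat cell. C/EBPgamma, from Cebpg, is a short family member that pairs with other leucine zipper proteins and acts in the amino acid stress response. CHOP, the product of Ddit3, pairs with C/EBP proteins and keeps them from their usual sites; it is known as an inhibitor of fat cell formation.

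All values are log2 expression values, so a difference of 1 is a doubling, and the threshold for calling a gene was 0.05 on its limma p after Benjamini-Hochberg adjustment across all genes. Array medians lay between 5.44 and 5.57. Trp53inp2 itself fell with knockdown at both days (-1.17 at day 0 and -1.57 at day 7, limma adjusted p = 0.00205 and 0.000111), while its dim second probe set had 0.20 and 0.24. With replicates 1 and 2 averaged the day 0 call was lost (-1.06, limma adjusted p = 0.165). Knockdown and control arrays with 1 number shared deviations from their group means (correlations 0.187 to 0.59), so each call was also made with the replicate number as a block. Arrays of other numbers correlated at up to 0.487, and day 7 knockdown replicate 1 was closer to control 2 (0.487) than to control 1 (0.434). Directions within pairs of the same number were counted only for the 6 genes and Trp53inp2, so no share over all genes stands beside them. Replicates 1 and 2 of a group lay closest together, and counts are also given with them averaged. The 3 measured fat cell markers (Adipoq, Fabp4 and Cidec) averaged 11.19 to 12.38 in day 7 knockdown arrays and 9.99 to 11.50 in day 7 controls, against 6.15 to 8.06 in day 0 knockdown arrays and 6.02 to 7.33 in day 0 controls. Fibroblast markers stayed bright in every array (lowest value 10.82). At day 7 all 5 of them measured had knockdown minus control values below 0 (median -0.49). Of these, 1 passed, Pdgfra (-0.49, limma adjusted p = 0.0436), where 3.57% of all genes were lower. At day 0 none of them passed. The 6 macrophage markers were split. Ptprc, Adgre1 and Itgam reached at most 3.62 in any array, but Csf1r, Cd14 and Cd68 averaged 8.59, 7.95 and 6.66; the mean of the 6 was 4.77 to 5.60 in day 7 knockdown arrays and 5.05 to 5.49 in day 7 controls, and 5.21 to 5.39 against 5.05 to 5.34 at day 0. The 4 endothelial markers reached at most 5.23 and the 4 epithelial ones at most 5.57. Of the 4 muscle markers, Myod1, Myog and Ckm reached at most 4.68, while Des rose with knockdown at day 7 (mean 7.04 in knockdown arrays and 6.43 in controls; 0.61 ± 0.16, limma adjusted p = 0.044); its part in the results was not tested.

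The promoters are shown because Pparg and Cebpa are known targets of C/EBP proteins and Cebpb of the cyclic AMP-responsive factor CREB. In GRCm38.p6, Cebpb lies at chr2:167688915-167690432, Pparg at chr6:115360879-115490404, Cebpg at chr7:35046422-35056566 near Cebpa at chr7:35119293-35121928, Ddit3 at chr10:127290793-127296291 and Cebpd at chr16:15887286-15889545. RefSeq windows of this build were found for 5 of the 6 genes; Cebpd is named only. Each is the 250 bases before an annotated start, 5′ to 3′ on the gene's strand, with capitals for the C/EBP letters TTGCNNAA or the CRE half-site TGACG on either strand.
Pparg, most downstream of 3 starts (chr6:115421816-115422065, + strand): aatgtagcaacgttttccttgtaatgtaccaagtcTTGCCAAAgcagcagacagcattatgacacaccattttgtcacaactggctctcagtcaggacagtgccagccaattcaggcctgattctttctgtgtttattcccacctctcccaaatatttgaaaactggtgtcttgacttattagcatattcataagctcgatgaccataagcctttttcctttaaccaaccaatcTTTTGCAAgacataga
Cebpa (chr7:35119043-35119292, + strand): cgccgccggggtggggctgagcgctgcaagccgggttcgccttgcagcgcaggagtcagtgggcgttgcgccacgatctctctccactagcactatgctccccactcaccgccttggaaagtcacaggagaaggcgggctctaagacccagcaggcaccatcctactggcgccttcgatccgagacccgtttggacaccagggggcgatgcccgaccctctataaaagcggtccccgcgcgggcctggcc
Cebpb (chr2:167688665-167688914, + strand): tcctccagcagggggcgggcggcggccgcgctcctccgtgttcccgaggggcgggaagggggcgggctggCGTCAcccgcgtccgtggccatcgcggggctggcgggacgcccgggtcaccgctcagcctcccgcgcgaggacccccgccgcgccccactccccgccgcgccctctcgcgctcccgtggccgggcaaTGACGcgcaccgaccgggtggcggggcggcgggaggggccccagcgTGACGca
The Pparg start shown, known as that of the Pparg2 isoform, had C/EBP letters beginning 215 and 16 bases before the start, the nearer one on the opposite strand. Such letters occurred in 9.56% of all 32851 windows. The other Pparg windows and that of Cebpa had none, and Cebpa had a TATAAA beginning 30 bases before its start (12.4% of windows had one on either strand). Cebpb had 3 CRE half-sites, beginning 180, 53 and 7 bases before the start, the farthest on the opposite strand; 17.8% of windows had at least 1. The PPAR response element was searched as 2 exact copies of AGGTCA with 1 base of any kind between them. It and the composite C/EBP and ATF letters TTGCATCA were on neither strand of any window of the 5 genes. Of all windows, 0.0335% and 0.791% had them. The windows of Cebpg and Ddit3 had neither C/EBP letters nor CRE half-sites. A match is a run of letters only, and none of these arrays measured binding. Sites that depart from the letters given were not searched, so a window without a match may still hold a site.

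**Figure D1:**
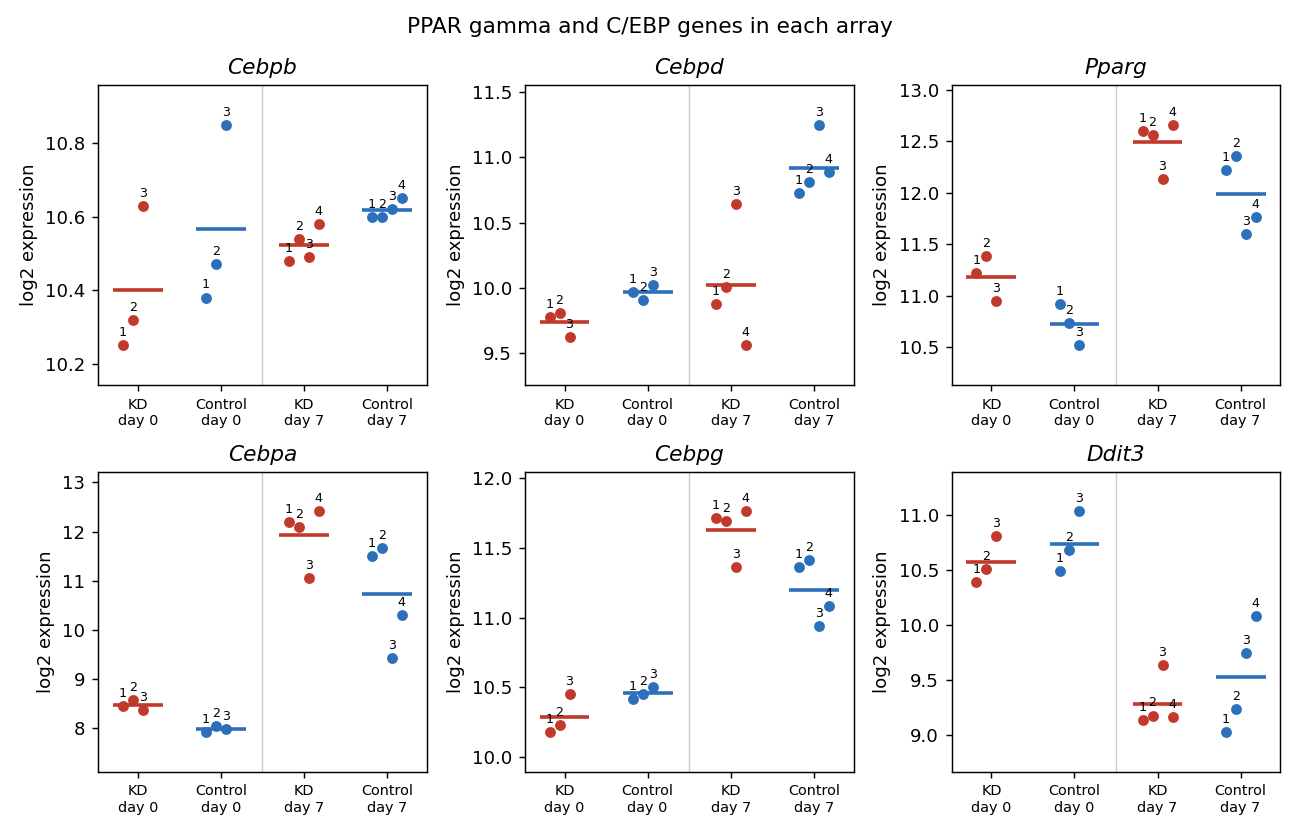
Expression of the 6 genes in each array (y axis, log2 expression, a separate scale per gene) by group, with day 0 left and day 7 right of the grey line. Points are arrays labelled by replicate number and horizontal lines are group means; the 4 day 7 knockdown arrays lie below all 4 controls for Cebpd, and replicate 3 is the lowest knockdown array for Pparg, Cebpa and Cebpg.

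Over differentiation, Pparg, Cebpa and Cebpg rose and Ddit3 fell in both kinds of cells, Cebpd rose in controls, and Cebpb passed the test in neither. Of the 6 genes, 4 changed in knockdown cells (3 higher, 1 lower), where 35.8% of all genes were called (19% higher, 16.8% lower). In controls 5 changed (4 higher, 1 lower), where 22.9% were called (10.1% higher, 12.8% lower). The median change of the 6 genes was 0.79 in knockdown cells and 0.85 in controls, against 0.01 and -0.01 over all genes. Since the whole population is measured, more fat cells and more RNA per fat cell cannot be told apart.

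Cebpb, the early factor, did not pass the test over differentiation. Its level averaged 10.52 ± 0.05 (SD, n = 4) at day 7 and 10.40 ± 0.20 (SD, n = 3) at day 0 in knockdown cells. In controls it averaged 10.62 ± 0.03 at day 7 and 10.57 ± 0.25 at day 0. The changes of 0.12 ± 0.12 (SE) and 0.05 ± 0.12 had limma adjusted p = 0.466 and 0.814, and the intervals (-0.13 to 0.38 and -0.20 to 0.30) lie below a doubling. Cells were sampled before induction and 7 days later, so any early, passing rise of this gene lies outside these samples.

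Cebpd rose in control cells, to 10.92 ± 0.23 (SD, n = 4) at day 7, against 9.97 ± 0.06 (SD, n = 3) at day 0. The log2 change was 0.96 ± 0.20 (limma adjusted p = 0.00445), and 0.99 with replicates 1 and 2 averaged, where it did not pass (0.0695). In knockdown cells Cebpd averaged 10.02 ± 0.45 at day 7 and 9.74 ± 0.10 at day 0, a change of 0.28 ± 0.20 that did not pass (adjusted p = 0.321). The day 7 knockdown range, 9.56 to 10.64, took in all 3 day 0 control values.

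Pparg rose to 12.49 ± 0.24 (SD, n = 4) at day 7 in knockdown cells, against 11.19 ± 0.22 (SD, n = 3) at day 0. That is 2.47-fold (log2 change 1.30 ± 0.20, limma adjusted p = 0.000213). In controls the day 7 and day 0 levels were 11.98 ± 0.36 and 10.73 ± 0.20, or 2.39-fold (1.26 ± 0.20, adjusted p = 0.000631). Pparg was thus already well above most probe sets on the array before differentiation, and its single probe set, whose name marks it as matching more than 1 transcript of the gene, lay brighter than 96% of all probe sets on average. Its isoforms cannot be told apart in these values.

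Cebpa rose most of the 6. Its day 7 and day 0 levels were 11.94 ± 0.60 (SD, n = 4) and 8.45 ± 0.11 (SD, n = 3) in knockdown cells, 11.2-fold apart (3.48 ± 0.46, limma adjusted p = 7.81e-05). In controls they were 10.72 ± 1.06 and 7.98 ± 0.06, 6.68-fold apart (2.74 ± 0.46, adjusted p = 0.00102). The spread between day 7 arrays was far wider than that at day 0 in both kinds of cells.

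Cebpg rose 2.54-fold in knockdown cells, to 11.63 ± 0.18 at day 7 against 10.29 ± 0.15 at day 0, and 1.67-fold in controls, to 11.20 ± 0.22 against 10.45 ± 0.04. Limma adjusted p-values were 8.48e-06 and 0.0015; with replicates 1 and 2 averaged the change in controls was 0.67 and did not pass (0.0511). Its dimmest probe set rose in knockdown cells (0.69 ± 0.10) but had 0.12 ± 0.10 in controls (adjusted p = 0.454 over all probe sets). Ddit3, the inhibitor, fell to 40.9% of its day 0 level in knockdown cells (9.28 ± 0.24 at day 7, 10.57 ± 0.22 at day 0) and to 43.3% in controls (9.53 ± 0.48 and 10.73 ± 0.27). Adjusted p-values were 0.000791 and 0.00266, and its dimmer second probe set also fell (-1.30 in knockdown cells and -1.09 in controls).

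In preadipocytes at day 0, none of the 6 genes passed the test, where 1.8% of all genes did (0.467% higher, 1.34% lower). Pparg and Cebpa lay higher in all 3 knockdown arrays than in any control, and Cebpd lower. In limma 1 of the 6 had an unadjusted p under 0.05, Pparg, where 2808 of all 18193 genes did. With the replicate block 0 of 6 passed (4.64% of all genes called, 1.24% higher and 3.4% lower), as with replicates 1 and 2 averaged. Groups that do not overlap were common at this size: 6.89% of all genes were higher in that way and 15.7% lower.

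Pparg had 11.22, 11.39 and 10.95 in day 0 knockdown arrays, against 10.92, 10.74 and 10.52 in controls. The highest control lay just under the lowest knockdown array. The difference was 0.46 ± 0.21 (SE; 1.37-fold, 95% interval 0.00 to 0.91, limma adjusted p = 0.322). Cebpa had 8.44, 8.57 and 8.35 in knockdown arrays and 7.91, 8.04 and 7.98 in controls, without overlap. Its difference of 0.48 ± 0.49 carries an interval of -0.59 to 1.54 (adjusted p = 0.721), wide because the fit shares 1 spread with the scattered day 7 arrays. Within the day 0 arrays alone the exact two-sided permutation p was 0.1 for Pparg, Cebpa and Cebpd, the smallest that 3 against 3 arrays allow (0.171 adjusted over 12 such tests).

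Cebpd had 9.78, 9.81 and 9.62 in day 0 knockdown arrays, against 9.97, 9.91 and 10.02 in controls, a difference of -0.23 ± 0.22 (limma adjusted p = 0.688). The 3 other C/EBP genes overlapped between groups. Cebpb differed by -0.17 ± 0.12, Cebpg by -0.17 ± 0.14 and Ddit3 by -0.16 ± 0.25 (limma adjusted p = 0.583, 0.642 and 0.835). Leaving out 1 array at a time moved them over -0.28 to -0.03 for Cebpb, -0.25 to -0.11 for Cebpg and -0.28 to -0.01 for Ddit3. Each of these was lower in the knockdown array of 3 of 3 pairs, with differences of -0.24 to -0.05, while dimmer probe sets of Cebpb (0.07) and Cebpg (0.10 in 1, -0.23 in the other) did not share 1 direction. Beta-actin and Gapdh control probe sets, whose 3′ minus 5′ difference tracks RNA quality, were also lower in all 3 knockdown arrays of day 0 than in any control (by -0.56 and -0.41 on average; exact permutation p = 0.1 each, 0.3 adjusted over 6 tests). The transferrin receptor control did not share this (1.63, 2.41 and 4.14 in knockdown arrays and 3.06, 3.19 and 2.99 in controls; exact permutation p = 0.7). With the beta-actin value as a covariate, chosen after the data were seen, Pparg passed (0.95 ± 0.16, limma adjusted p = 0.0118). Cebpa moved to 1.56 (limma adjusted p = 0.0665), Cebpd to -0.63 (0.128), Ddit3 to -0.67 (0.141) and Cebpb to -0.30, all without passing. Since the beta-actin value did not overlap between the day 0 groups, this covariate and knockdown cannot be told apart there. The part of RNA quality in these values was not otherwise tested.

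**Figure D2:**
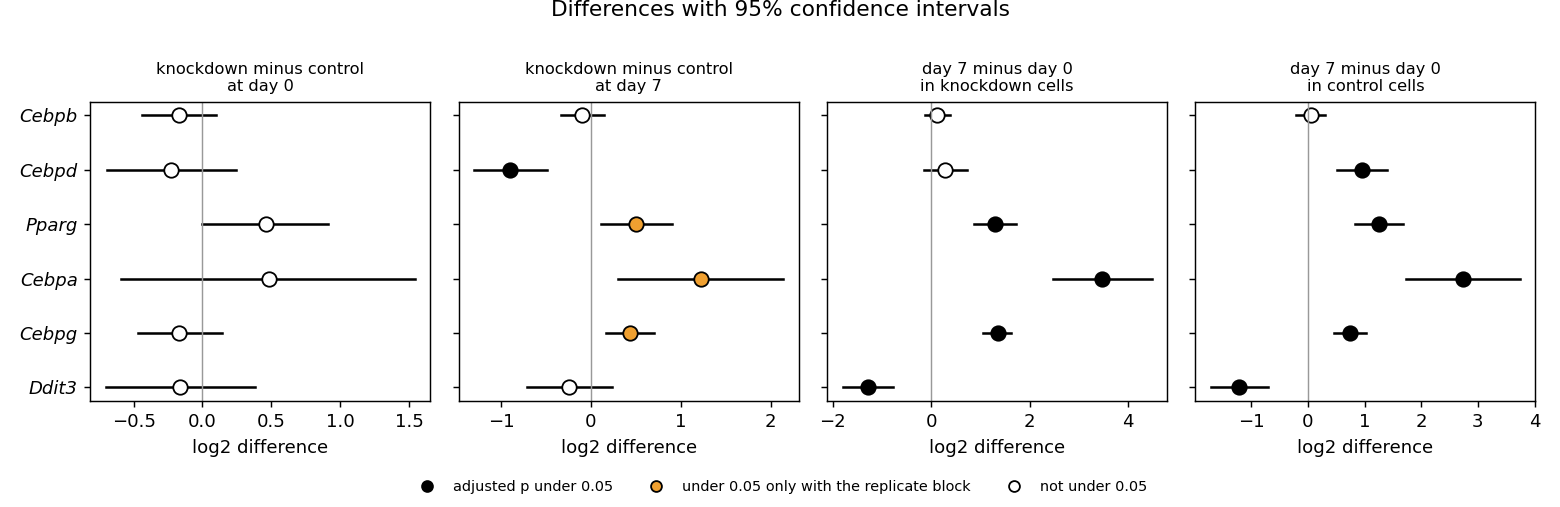
Log2 differences (x axes, a separate scale per panel) of the 6 genes for knockdown minus control at each day and for day 7 minus day 0 in each kind of cell. Circles are estimates and lines 95% confidence intervals of the limma fit; at day 7 Cebpd is the filled circle, and Pparg, Cebpa and Cebpg pass with the replicate block.

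At day 7, Cebpd fell with knockdown to 53.6% of the control level, while Pparg, Cebpa and Cebpg had 1.42, 2.33 and 1.35 times the control level without passing the test. The test called 1 of the 6 genes, which was lower, where 6.58% of all genes were called (3.01% higher, 3.57% lower). With the replicate block 4 of the 6 passed, Pparg, Cebpa and Cebpg higher and Cebpd lower, where 14.7% of all genes passed (7.54% higher, 7.2% lower). With replicates 1 and 2 averaged 0 passed. The median difference of the 6 was 0.17, against -0.02 over all genes.

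Cebpd had 9.88, 10.01, 10.64 and 9.56 in day 7 knockdown arrays 1 to 4, against 10.73, 10.81, 11.25 and 10.89 in controls. Every knockdown array lay below every control, as did 6.96% of all genes at day 7. The difference was -0.90 ± 0.19 (95% interval -1.30 to -0.49, limma adjusted p = 0.0173, and 0.00541 with the block). Knockdown was lower in 4 of 4 pairs, by -0.86, -0.80, -0.61 and -1.33, and a second probe set of like brightness gave -0.99 ± 0.21 (adjusted p = 0.019 over all probe sets). The call was lost with replicates 1 and 2 averaged (-0.92, adjusted p = 0.183), with the day 7 arrays fitted alone (0.0797), without knockdown replicate 1 or 2 (0.0628 and 0.0549) and without both replicate 4 arrays (-0.76, 0.0902).

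Pparg had 12.60, 12.56, 12.13 and 12.66 in day 7 knockdown arrays and 12.22, 12.36, 11.60 and 11.76 in controls. The groups overlapped through knockdown replicate 3, which lay below controls 1 and 2. The difference was 0.50 ± 0.18 (interval 0.11 to 0.90, limma adjusted p = 0.115), and with the block 0.50 ± 0.12 (adjusted p = 0.0316), with knockdown higher in 4 of 4 pairs. Without knockdown replicate 3 it was 0.62 (adjusted p = 0.0389).

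Cebpa, the factor that holds the mature state, had 12.19, 12.09, 11.06 and 12.41 in knockdown arrays and 11.50, 11.66, 9.42 and 10.29 in controls. Knockdown replicate 3 again overlapped with controls 1 and 2. The difference was 1.22 ± 0.43 (interval 0.30 to 2.14, limma adjusted p = 0.103), and with the block 1.22 ± 0.26 (adjusted p = 0.0204). Pairs differed by 0.69, 0.43, 1.64 and 2.12, so that pairs 3 and 4, whose controls were the lowest, carried most of it. Leaving out 1 array at a time moved the value between 0.79 and 1.54, and it passed without knockdown replicate 3 (1.51, adjusted p = 0.032).

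Cebpg had 11.71, 11.69, 11.36 and 11.76 in knockdown arrays and 11.36, 11.41, 10.94 and 11.08 in controls. Here too the overlap came through knockdown replicate 3. The difference of 0.43 ± 0.12 just missed the threshold (limma adjusted p = 0.053) and passed with the block (0.43 ± 0.09, adjusted p = 0.0173), without the dimmest 40% of genes (0.0304) and with a trend in the variance (0.0325). It also passed without control replicate 2 (0.51) or knockdown replicate 3 (0.53). Its other probe sets gave 0.34 ± 0.09 and 0.28 ± 0.13 (adjusted p = 0.0493 and 0.231 over all probe sets).

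Cebpb and Ddit3 did not pass the test at day 7, with or without the block. Cebpb had 10.48, 10.54, 10.49 and 10.58 in knockdown arrays and 10.60, 10.60, 10.62 and 10.65 in controls. The groups did not overlap, yet the difference was only -0.10 ± 0.11 (interval -0.33 to 0.14, limma adjusted p = 0.657). Its exact permutation p of 0.0286 is the smallest that 4 against 4 arrays allow (0.171 adjusted over 12 tests), and its dimmer probe set had 0.03 ± 0.16. The exact permutation p at day 7 was also 0.0286 for Cebpd, and 0.0571 for Cebpg, 0.0857 for Pparg and 0.114 for Cebpa (0.171 adjusted for each). For Ddit3 it was 0.429 (0.515 adjusted). Ddit3 had 9.14, 9.18, 9.64 and 9.17 in knockdown arrays and 9.03, 9.24, 9.75 and 10.08 in controls, with full overlap. Its difference was -0.24 ± 0.22 (interval -0.71 to 0.23, limma adjusted p = 0.556), and pair 4 alone, at -0.91, was far from 0. The dimmer second probe set of Ddit3 had -0.24 ± 0.11 (limma adjusted p = 0.231 over all probe sets). There the groups did not overlap, with 7.34 to 7.66 in knockdown arrays and 7.73 to 7.88 in controls. Read from brightest probe sets, 6.96% of all genes were lower in that way.

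**Figure D3:**
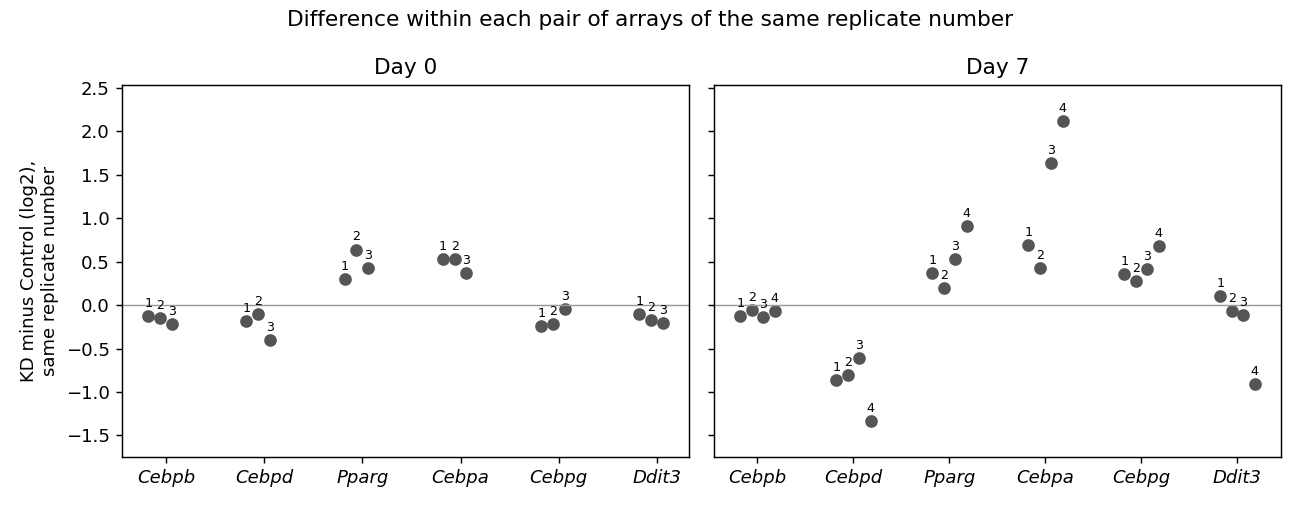
Knockdown minus control (y axis, log2) for each pair of arrays of the same replicate number, at day 0 (left, 3 pairs) and day 7 (right, 4 pairs). Points are labelled by replicate number; Pparg and Cebpa are above 0 in all 7 pairs, Cebpb and Cebpd below 0 in all 7, and Cebpg is below 0 in the 3 day 0 pairs and above 0 in the 4 day 7 pairs.

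The knockdown effects at the 2 days were compared in the same fit. None of the 6 genes passed, where 0.022% of all genes did (0.0165% positive, 0.0055% negative). Of the 6, 2 had an unadjusted limma p under 0.05, Cebpd and Cebpg, where 2403 of all 18193 genes did. Cebpg had 0.60 ± 0.19 more difference at day 7 than at day 0 (adjusted p = 0.212, and 0.0687 with the block, where 1.08% of all genes passed). Cebpd had -0.67 ± 0.28 (adjusted p = 0.333, and 0.102 with the block). This is also the test of whether Cebpd rose less in knockdown cells, so its rise in controls alone is not shown to differ. The Cebpd value passed without both replicate 3 arrays of each day (-0.86, adjusted p = 0.0486) and without knockdown replicate 3 of day 7 (-0.88, 0.0493). Pparg had 0.05 ± 0.28, Cebpa 0.74 ± 0.65, Cebpb 0.07 ± 0.16 and Ddit3 -0.08 ± 0.33.

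Across the 8 day 7 arrays, Pparg, Cebpa and Cebpg ran with the mean of known target genes of the core, and Cebpd, Ddit3 and Cebpb mostly against it. Of 28 possible pairs of these arrays, Pparg and Cebpa were ordered like the mean of 19 target genes in all 28, and Cebpg in 27 with 1 tie. Cebpd was ordered the opposite way in 25, Ddit3 in 22 and Cebpb in 20. Among the 15 pairs of day 0 arrays, Pparg was ordered like the target mean in 13 and Cebpa in 11, but Cebpg in 1. Cebpb was ordered the opposite way in 14 of these and Ddit3 in 13, while Cebpd was opposite in 9 and alike in 6. The target mean was 9.90, 9.86, 9.17 and 10.03 in knockdown arrays 1 to 4 and 9.44, 9.46, 8.38 and 8.57 in controls, so that knockdown replicate 3 and controls 3 and 4 were the 3 lowest. The preadipocyte and fibroblast markers ran the other way, with means of 11.92 to 12.69 in knockdown arrays and 12.45 to 12.86 in controls. The order was counted for these genes only, so how many of all genes follow the target mean as closely is not known. These points share arrays and normalization, and the part of the degree of differentiation in the differences between knockdown and control was not tested.

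**Figure D4:**
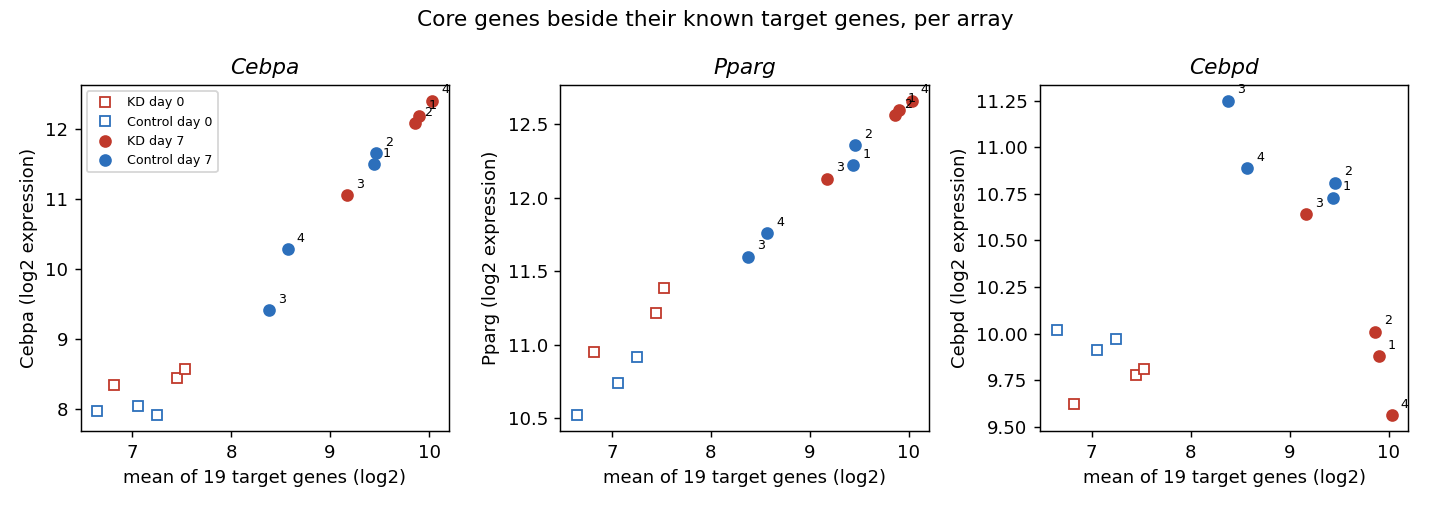
Level of Cebpa, Pparg and Cebpd (y axes, log2 expression) against the mean of 19 PPARgamma and C/EBPalpha target genes (x axes, log2) in each of the 14 arrays. Red is knockdown and blue control, open squares are day 0 and filled circles day 7, labelled by replicate number; at day 7 Cebpa and Pparg run up and Cebpd down with the target mean, and knockdown replicate 3 lies below controls 1 and 2 on the x axis.

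Among the target genes themselves, knockdown values were mostly above 0 at day 7 and few passed singly. Of the 24 listed genes 19 were measured. Over differentiation 14 rose and 1 fell in knockdown cells, where 19% of all genes rose and 16.8% fell. In controls 11 rose and 0 fell, where 10.1% of all genes rose and 12.8% fell. At day 7 Aqp7, the glycerol channel of fat cells, rose with knockdown (2.56 ± 0.49, limma adjusted p = 0.0121). It averaged 6.95 ± 0.49 in knockdown arrays and 4.38 ± 1.28 in controls (SD, n = 4). Of the list 0 fell and 18 did not pass, where 3.01% of all genes were higher and 3.57% lower. The median over the list was 0.54 against -0.02 over all genes, with 15 of 19 values above 0. With the block 9 were higher and 2 lower, where 7.54% and 7.2% of all genes were. The higher ones included Cidec, which enlarges lipid droplets (2.20 ± 0.37, adjusted p = 0.0106 with the block and 0.0744 without), Agpat2, an enzyme of triglyceride synthesis (1.16 ± 0.18, 0.00749 and 0.0694), and Pnpla2, the first lipase of fat breakdown (0.91 ± 0.16, 0.0123 and 0.0754). The lower ones were Angptl4, a lipoprotein lipase inhibitor (-0.48), and Pdk4, a brake on glucose oxidation (-0.51). At day 0 none passed in limma and 3 had an unadjusted p under 0.05 (2808 of all 18193 genes did). With the block 1 passed, the fatty acid binding protein gene Fabp4 (0.42 ± 0.09, limma adjusted p = 0.049), where 1.24% of all genes were higher and 3.4% lower. The smallest p without the block was that of Me1, malic enzyme (-0.39, adjusted p = 0.158). With replicates 1 and 2 averaged 0 target genes passed at either day. Without knockdown replicate 3 of day 7 there were 10 at day 7 (9 higher, 1 lower), where 2885 of all 18193 genes passed (1372 higher, 1513 lower).

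The partners and coregulators of PPARgamma did not pass in either comparison. Of 18 listed 16 were measured, with a median of -0.01 at day 0 and 0.09 at day 7. In limma 0 had an unadjusted p under 0.05 at day 0 and 3 at day 7 (2808 and 4273 of all 18193 genes did). The smallest were Prdm16, a brown fat coregulator, at day 0 (-0.21, adjusted p = 0.479) and the coactivator gene Ncoa3 at day 7 (-0.50 ± 0.16, adjusted p = 0.0774). With the block Ppargc1a, a coactivator of mitochondrial genes, was higher at day 7 (0.65 ± 0.16, adjusted p = 0.0339). The RXR genes with which PPARgamma pairs had 0.24 (Rxra), 0.18 (Rxrb) and -0.40 (Rxrg) at day 7. Of the other genes of both families 2 of 4 were measured, Ppara (0.24 at day 7, adjusted p = 0.476) and Ppard (-0.24 at day 0, adjusted p = 0.339); neither passed, nor had an unadjusted limma p under 0.05, in either comparison.

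Among 18 genes known to restrain the core, 3 rose with knockdown at day 7, 0 fell and 15 did not pass, where 3.01% of all genes were higher and 3.57% lower. Without knockdown replicate 3 of day 7 the count was 10 (4 higher, 6 lower), where 2885 of all 18193 genes passed. Without knockdown replicate 1 it was 0, where 369 of all genes passed. It was 1 without knockdown replicate 2 or 4 or control replicate 3 or 4, where 377, 461, 591 and 558 of all genes passed. Irf4, an interferon regulatory factor that restrains fat storage, averaged 6.38 ± 0.75 in knockdown arrays and 4.82 ± 0.29 in controls (SD, n = 4; 1.56 ± 0.35, limma adjusted p = 0.0256). The GATA factor genes Gata3 and Gata2, whose products are known to repress Pparg in preadipocytes, rose by 0.92 ± 0.18 and 0.56 ± 0.15 (adjusted p = 0.0146 and 0.04996). Gata3 averaged 5.48 ± 0.31 in knockdown arrays and 4.56 ± 0.13 in controls, in the dim part of the scale. With the block these 3 were higher and 3 were lower, where 7.54% and 7.2% of all genes were: Dlk1, the preadipocyte surface protein that fades as fat cells form (-0.67, adjusted p = 0.0198), Runx1t1, a corepressor (-0.88, 0.0185), and Trib2, a pseudokinase that promotes the breakdown of C/EBPalpha (-0.59, 0.0228). The list's median was -0.10 at day 7. At day 0 none passed, and 2 had an unadjusted limma p under 0.05 (2808 of all 18193 genes did). The smallest p was that of Foxc2 (-0.69, limma adjusted p = 0.0811). With replicates 1 and 2 averaged 0 passed at either day.

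Of 18 upstream activators, 1 rose at day 0 and 1 fell at day 7, where 0.467% of all genes were higher at day 0 and 3.57% lower at day 7. The first was Klf5, known as an activator of Pparg that C/EBPbeta and C/EBPdelta induce (8.44 ± 0.32 in knockdown arrays and 7.33 ± 0.25 in controls, SD, n = 3; limma adjusted p = 0.0344). The second was Kdm4b, a histone demethylase gene (-0.60 ± 0.14, adjusted p = 0.0262). With the block 2 were higher and 2 lower at day 7, where 7.54% and 7.2% of all genes were: Ebf2 (1.05 ± 0.15, adjusted p = 0.00698) and Zfp423 (0.65 ± 0.12, 0.0144), both factors of preadipocyte commitment, and Klf4 (-0.84 ± 0.23, 0.0452), an early activator of Cebpb, with Kdm4b. Averaging replicates 1 and 2 left 0 at either day. Leaving out 1 array at a time left 0 to 1 at day 0 (0 without any control array of day 0 or knockdown replicate 1 or 2) and 0 to 4 at day 7 (4 without knockdown replicate 3, 0 without any other knockdown array or control replicate 1, 2 or 3).

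Of 15 genes of the stress responses in which Cebpg and Ddit3 act, 1 fell at day 0 and 1 at day 7, and 0 rose, where 1.34% of all genes were lower at day 0 and 3.57% at day 7. Of 14 omissions of a single array, 12 changed the day 0 count, to 0, and 11 the day 7 count, to 0 or, without knockdown replicate 3 of either day, to 2. They were Ero1a, an oxidase of protein folding in the endoplasmic reticulum (-0.82 ± 0.19 at day 0, limma adjusted p = 0.0484), and the lipoprotein receptor gene Vldlr (-0.56 ± 0.14 at day 7, adjusted p = 0.0379). With the block, where 7.54% of all genes were higher and 7.2% lower, 1 was higher at day 7, the cystine transporter gene Slc7a11 (0.63 ± 0.13, adjusted p = 0.0211), and 3 were lower, Vldlr, Ero1a (-0.29) and Ddit4 (-0.36). With replicates 1 and 2 averaged 0 passed at either day.

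The genes nearest to each core gene over the 14 arrays were found by the root mean square difference of the values after each gene was centred on its own mean, among 18192 other genes. Nearest to Pparg were Napepld and Pus1 (0.143 and 0.160 on the log2 scale), and to Cebpa Cmbl and Rnf125 (0.272 and 0.350). Nearest to Cebpg were Fbxo45 and Gfm1 (0.073 and 0.088). Layn and Slc39a14 lay nearest to Cebpd (0.193 and 0.194), and Trio and Ddah2 to Ddit3 (0.182 and 0.186). Layn had knockdown minus control differences of -0.28 at day 0 and -0.67 at day 7, beside -0.23 and -0.90 for Cebpd. Cebpb spanned only 0.22 between its group means, so no neighbours are named.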

How the data were processed

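Total RNA was amplified and biotin-labelled, and 1 array was made per sample, per the labels' protocols. Per probe set, the authors deposited a log2 value; the submitters' processing notes name RMA and the affy package, with no version that was used here. The log2 scale was read from the range of the values (1.13 to 14.37), and the files give no detection call. RMA compresses differences of dim genes. Of 45101 probe sets, 64 control probe sets were left out; of the others 34945 had 1 gene symbol, 932 had several and 9160 are unnamed here. Each of 18193 genes was read from its brightest probe set, by the mean of all 14 arrays; the 6 core genes had 11 probe sets, and the others served as a check, adjusted over all probe sets. Gene IDs were looked up in a RefSeq table of GRCm38.p6, with 0 symbols updated.

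Group means were estimated from all arrays (limma 3.58.1 under R 4.3.3; lmFit and eBayes with 12.6 degrees of freedom), with 5 contrasts and Benjamini-Hochberg adjustment; every adjusted p comes from such a fit unless called exact. The fit was tested on simulated data. Alternatives were the replicate block, averaging of replicates 1 and 2, other scalings, filters and probe sets, 1 day alone, a variance trend and each array left out. Replicate numbers come from the labels. The deviations of arrays of the same number from their group means correlated at 0.187 to 0.331 at day 0 (3 pairs) and 0.389 to 0.59 at day 7 (4 pairs), and at -0.475 to 0.487 between other numbers, so the numbers were taken to pair arrays within a day. Genes and lists were chosen with earlier results of these data known. Named genes are the 6, Trp53inp2, up to 4 called genes with the largest change per list and comparison (or that with the smallest p), and 2 nearest genes; genes called only with the block, the RXR genes and markers were named after their values were seen. The number of arrays limits the precision.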

Additional observations from a re-analysis of the deposited data

Results flagged for a closer look

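In day 7 knockdown arrays, Ddit3 of replicate 3 (9.64) stood apart from the other arrays (9.14 to 9.18): its gap was 0.931 of the group's range, above Dixon's critical value for 4 samples. Of 14 sets of 4 arrays looked at in this way this was the only one, and chance alone marks about 1 in 20. The same array had the lowest Pparg, Cebpa and Cebpg among the knockdown arrays of day 7, and without it the Ddit3 difference was -0.36 (limma adjusted p = 0.326). Its 3′ minus 5′ differences of beta-actin and Gapdh (2.7 and 1.35) were the lowest of its group. Those of control replicate 3 (2.82 and 1.24) were the lowest of the day 7 controls. The transferrin receptor control was lowest in replicate 4 of both groups (5.04 and 4.81). The part of RNA quality in the Ddit3 value was not tested.

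Cebpg differed in opposite directions at the 2 days: it was lower in the knockdown array of 3 of 3 pairs at day 0 and higher in 4 of 4 pairs at day 7. How many of all genes do the same was not counted. The effect at day 7 minus that at day 0 was 0.60 (limma adjusted p = 0.212, and 0.0687 with the replicate block), so the difference did not pass. Its second brightest probe set gave 0.19 ± 0.20 and its dimmest 0.57 ± 0.14 (adjusted p = 0.731 and 0.101 over all probe sets).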

How the results depend on the processing

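With the replicate number as a block, which was taken to pair arrays of the same number, Pparg (0.50), Cebpa (1.22) and Cebpg (0.43) passed at day 7, making 4 of the 6 genes, and the block changed no other call of these genes. It raised the calls among all genes to 844 at day 0 (328 without it), 2680 at day 7 (1197) and 196 for the difference between days (4). It gives no value for differentiation, since day differs between blocks, and the arrays of 1 day alone give none for the difference between days. Averaging replicates 1 and 2 left 24, 64 and 0 genes in these comparisons, 4098 (of 6506) for differentiation in knockdown cells and 1584 (of 4162) in controls; of the 6 genes it left 0 at day 7 (Cebpd -0.92) and 3 in control differentiation, where Cebpd (0.99) and Cebpg (0.67) no longer passed. Fitting 1 day alone gave 207 and 333 genes and 0 of the 6 at day 7 (Cebpd -0.90). Without the dimmest 40% of genes the counts were 498, 1831 and 57, and a variance trend gave 8 for the difference between days; with either, 2 of the 6 passed at day 7, Cebpg at 0.43 joining Cebpd. Shifting arrays to 1 median gave 517 genes at day 0, and quantile normalization 1 and the probe set of largest interquartile range 12 for the difference between days. With that probe set Cebpb turned to 0.07 at day 0, 0.03 at day 7 and -0.04 for the difference, and Cebpg to 0.10 at day 0.

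Leaving out 1 array at a time gave 101 to 631 genes at day 0, 369 to 2885 at day 7 and 1 to 317 for the difference. Of the 6 genes 0 to 4 passed at day 7 (0 without knockdown replicate 1 or 2, 4 without knockdown replicate 3) and 0 to 1 for the difference. The day 7 values ranged over -1.11 to -0.75 for Cebpd, 0.37 to 0.63 for Pparg, 0.79 to 1.54 for Cebpa and 0.35 to 0.53 for Cebpg. The difference between days ranged over -0.07 to 0.19 for Cebpb, -0.08 to 0.17 for Pparg and -0.25 to 0.10 for Ddit3, and Cebpb in control differentiation over -0.04 to 0.19 (-0.01 with replicates 1 and 2 averaged).

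Chosen after seeing the data, the beta-actin covariate gave 590 and 2804 genes, 1 of the 6 at day 0 (Pparg 0.95) and 4 at day 7 (with Pparg 0.68, Cebpa 1.62 and Cebpg 0.50). At day 0 this covariate did not overlap between the groups and cannot be told apart from knockdown. It turned Cebpg at day 0 to 0.02, Cebpb in control differentiation to -0.02, and the difference between days to -0.26 for Pparg and 0.23 for Ddit3. Without both replicate 3 arrays of each day there were 889, 2742 and 507 genes, 2 of the 6 at day 7 (Cebpg 0.44) and 1 for the difference. Without both replicate 4 arrays of day 7 there were 219 genes and 0 of the 6 at day 7 (Cebpd -0.76), 1 gene for the difference, and -0.09 for Pparg and 0.14 for Ddit3 there. The cause of these changes was not tested. The differentiation of Pparg, Cebpa and Ddit3 passed in every alternative run, in both kinds of cells.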
